A study of Mus musculus with 6 samples.

Results

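The glutamate and glutamine transport cycle is described here through 10 genes, taken as a fixed set of symbols: the glutamate transporters Slc1a1, Slc1a2, Slc1a3 and Slc1a6, the neutral amino acid exchangers Slc1a4 and Slc1a5, the glutamine transporters Slc38a1, Slc38a2 and Slc38a3, and glutamine synthetase, Glul. All 10 were found among the 19938 genes that the array annotation names singly. Rows were selected on their mean intensity over all 6 arrays, the brightest standing for a gene with several rows, and not on the difference between groups. The set itself was proposed with earlier results of these data in view, the higher Slc1a1 among them, so the Slc1a1 values are a description of a known difference.

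The arrays came from primary cultures of embryonic mouse brain, made from OF1 embryos at embryonic day 17 and differentiated in fetal calf serum into a mixture of neurons and glia. In serum-free medium without growth factors, 3 cultures received 1,25-dihydroxyvitamin D3 (1,25D), the hormonally active form of vitamin D, at 10 nM. The 3 control cultures are labelled as not treated, and the treatment protocol gives them vehicle. How long the hormone was present is not stated, nor is it stated whether arrays with the same replicate number share a litter or a day. The p-values therefore measure the spread between these 6 arrays. In such mixed cultures, fewer cells of a type and less RNA per cell cannot be told apart.

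Glutamate released at excitatory synapses is not broken down outside the cell but carried away by sodium-coupled transporters of the Slc1 family, mainly into astrocytes. Astrocytes turn it into glutamine through glutamine synthetase and release the glutamine through Slc38a3, and neurons take glutamine up through other carriers and make glutamate from it again. The neuronal transporter Slc1a1 also carries cysteine, the limiting building block of glutathione. Slc1a4 and Slc1a5 belong to the same family but exchange neutral amino acids such as serine, alanine and glutamine.

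Across the 10 genes, the hormone-treated cultures had a higher level of Slc1a1 in every pair of arrays, and the glial transporters Slc1a2, Slc1a3 and Slc38a3 differed in no constant direction. In the fit over all 19938 genes without regard to replicate numbers, 0 of the 10 genes passed an adjusted p of 0.05 (limma, Benjamini-Hochberg over all genes). Over all genes 0.0251% passed in that fit, and 2 of the 10 genes, Slc1a1 and Slc1a5, had an unadjusted p under 0.05, against 1.48% of all genes. With the replicate number as a block, Slc1a1 alone passed, 1 gene of 10, against 0.0903% of all genes. Because its difference was known when the set was made, nothing is read from this count or from the other counts here that include Slc1a1. At an unadjusted p under 0.05 the blocked fit held 3 of the 10 genes (Slc1a1, Slc1a5 and Slc1a4), against 5.78% of all genes. The median log2 difference (1,25D minus control) was -0.0092 over the 10 genes and 0.0074 over all genes.

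The upstream sequences of the 2 genes whose groups did not overlap, Slc1a1 with higher and Slc1a4 with lower values in 1,25D, are shown because the vitamin D receptor binds DNA at paired copies of a hexamer. Each is the 250 bases before the gene's start, written 5′ to 3′ on the gene's strand, from RefSeq on GRCm38.p6. The Slc1a1 window lies at chr19:28834885-28835134 on the plus strand, and the Slc1a4 window at chr11:20332714-20332963 on the minus strand. Capitals mark a match, on either strand, to the receptor hexamer AGGTCA or to the variants searched with it, which were GGGTCA, the variant AGTTCA, and as the last of them GGTTCA.
Slc1a1: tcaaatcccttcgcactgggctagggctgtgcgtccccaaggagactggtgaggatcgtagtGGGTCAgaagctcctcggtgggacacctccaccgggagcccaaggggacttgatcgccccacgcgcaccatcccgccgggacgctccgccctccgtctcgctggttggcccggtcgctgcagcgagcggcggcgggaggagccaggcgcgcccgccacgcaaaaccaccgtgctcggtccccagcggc
Slc1a4: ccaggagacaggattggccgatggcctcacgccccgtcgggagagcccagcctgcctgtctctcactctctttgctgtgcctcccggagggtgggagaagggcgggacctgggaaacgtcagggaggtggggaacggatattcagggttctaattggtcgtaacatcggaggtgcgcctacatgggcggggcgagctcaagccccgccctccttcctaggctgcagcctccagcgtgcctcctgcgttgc

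The Slc1a1 window held 1 hexamer, GGGTCA, from 188 to 183 bases before the start, and the Slc1a4 window held 0. RefSeq windows were found for 7 of the 10 genes, and 2 of the 7, Slc1a1 and Glul, held a hexamer. Of all 32851 windows of this length, 38.6% held at least 1. The complete DR3 element, a pair of these hexamers on the same strand with 3 bases between them, was in 0 of the 7 windows and in 0.0396% of all windows. A match is a run of letters and no measured binding site, and sites outside these windows were not searched.

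Slc1a1, the high-affinity glutamate transporter of neurons, had log2 intensities of 7.61, 8.05 and 7.65 on control arrays 1, 2 and 3 and of 8.99, 8.98 and 8.90 on the 1,25D arrays. The 3 treated arrays lay close together and all above every control, and control 2 stood highest among the controls. The means were 7.77 ± 0.24 and 8.96 ± 0.05 (SD, n = 3 each), a 2.28-fold higher level with a 95% interval of 1.84 to 2.82 in the fit without the block. On the linear scale the mean intensity was 220.2 in control and 497.1 in 1,25D cultures. Within equal replicate numbers the level was 2.60-fold, 1.91-fold and 2.38-fold higher in pairs 1, 2 and 3, so pair 2 had the smallest difference.

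Only 14 of all 19938 genes had a larger difference upward than Slc1a1. Its log2 difference of 1.19 ± 0.13 (SE) had an adjusted p of 0.058 in the limma fit without the block, and it rose with the block at an adjusted p of 0.024 (SE 0.10). The call with the block was lost after quantile normalisation (adjusted p = 0.056), over all rows of the table (0.49) and without replicate 2 (0.25), while the log2 difference was 1.20, 1.19 and 1.31 in these 3 settings. The exact permutation test of this gene alone gave p = 0.10 (two-sided), the smallest that 3 arrays against 3 can give.

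**Figure D1:**
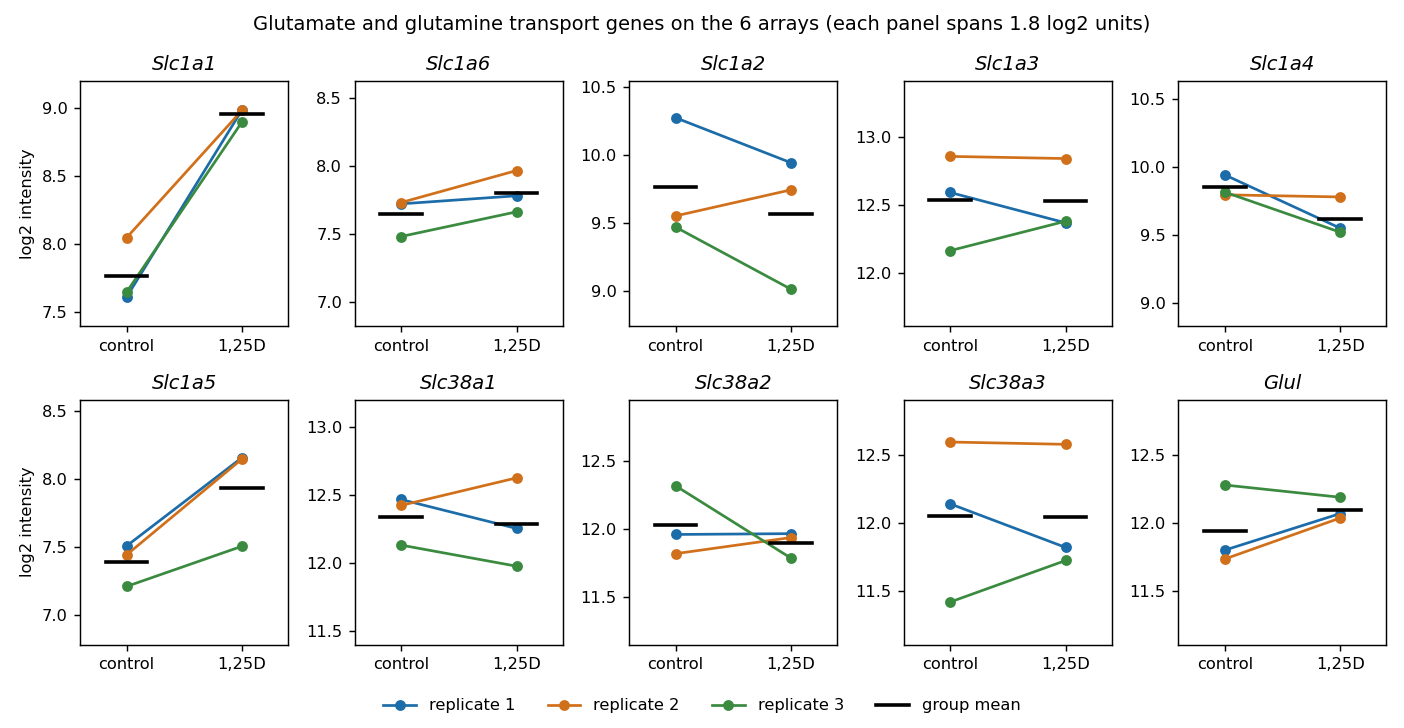
Log2 intensity (vertical axis) of each of the 10 genes on the control and 1,25D arrays, with lines joining arrays of equal replicate number and black bars for the group means; each panel spans the same number of log2 units. All 3 lines of Slc1a1 climb, from 7.61 to 8.05 in control up to 8.90 to 8.99 in 1,25D. The lines of Slc1a2, Slc1a3 and Slc38a3 run in different directions. Those of Slc1a3 in replicates 1 and 3 meet in 1,25D, at 12.37 and 12.38.

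Slc1a6, the glutamate transporter best known from cerebellar Purkinje cells, had log2 intensities of 7.72, 7.73 and 7.48 in control and of 7.78, 7.97 and 7.66 in 1,25D cultures. The treated value was the higher in each pair, by 0.059, 0.23 and 0.18, but the groups overlapped because both replicate 3 arrays were low. The log2 difference of 0.16 ± 0.12 (SE) did not pass in limma without the block (adjusted p = 1.00) or with it (0.89).

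Slc1a2, the main glutamate transporter of mature astrocytes (GLT-1), had log2 intensities of 10.27, 9.55 and 9.47 in control and of 9.94, 9.74 and 9.01 in 1,25D cultures. Replicate 1 was the highest and replicate 3 the lowest in both groups. The difference was -0.33, 0.19 and -0.46 in the 3 pairs, and the mean difference of -0.20 ± 0.29 (SE) had an adjusted p of 1.00 (limma). Its 95% interval without the block ran from a 0.55-fold to a 1.38-fold level in 1,25D, so with 3 arrays a group that fit excludes no change within these bounds. With the block the interval of the log2 difference was -0.52 to 0.12.

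Slc1a3, the astrocyte and progenitor transporter GLAST, had log2 intensities of 12.59, 12.86 and 12.16 in control and of 12.37, 12.84 and 12.38 in 1,25D cultures. Replicate 2 was the highest in both groups, and the groups overlapped. The pairs differed by -0.22, -0.016 and 0.22, and the mean difference of -0.0076 ± 0.20 (SE) turned to 0.014 after quantile normalisation. Its 95% interval ran from 0.72-fold to 1.38-fold.

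The neutral amino acid exchangers of the family had differences of opposite sign in the same arrays. Slc1a5, also called ASCT2, which brings glutamine into many growing cells, had log2 intensities of 7.51, 7.44 and 7.21 in control and of 8.16, 8.15 and 7.51 in 1,25D cultures. The treated value was higher in each pair, by 0.65, 0.70 and 0.30, and the lowest treated array lay below the highest control by only 0.0015. The mean level was 1.46-fold higher, with a 95% interval of 1.08 to 1.98, an unadjusted p of 0.020 and an adjusted p of 1.00 (limma without the block). With the block the unadjusted p was 0.0013 and the adjusted p 0.31 (limma), so Slc1a5 did not pass, and 88 of the 19938 genes had a larger difference upward.

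Slc1a4, or ASCT1, an exchanger of serine and other small neutral amino acids, had log2 intensities of 9.94, 9.79 and 9.81 in control and of 9.55, 9.78 and 9.52 in 1,25D cultures. All 3 treated arrays lay below all controls, but in pair 2 the difference was -0.016, against -0.39 and -0.29 in pairs 1 and 3. The mean level in 1,25D was 0.85-fold that of control, with a 95% interval of 0.71 to 1.01, and did not pass in limma (adjusted p = 1.00 without and 0.86 with the block). After quantile normalisation the groups overlapped and the difference in pair 2 was 0.012.

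Slc38a1, a glutamine transporter of neurons (SNAT1), had log2 intensities of 12.47, 12.42 and 12.13 in control and of 12.25, 12.62 and 11.98 in 1,25D cultures. The pairs differed by -0.21, 0.20 and -0.16, and the groups overlapped. A second row of Slc38a1 in the table, with lower intensities of 10.06 to 10.73, gave -0.51, -0.054 and 0.13, so the rows did not share a sign in pairs 2 and 3. Neither pattern had a constant direction, and the mean difference of -0.06 ± 0.18 (SE) did not pass (limma, adjusted p = 1.00).

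Slc38a2, or SNAT2, a carrier that many cells induce when amino acids run short, had log2 intensities of 11.96, 11.82 and 12.32 in control and of 11.97, 11.94 and 11.79 in 1,25D cultures. Control 3 was the highest of the 6 arrays and 1,25D array 3 the lowest, so the difference was 0.0061 and 0.12 in pairs 1 and 2 and -0.53 in pair 3. The mean difference was -0.14 ± 0.14 (SE), and it was 0.0068 without control replicate 3.

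Slc38a3, or SNAT3, through which astrocytes let glutamine out, had log2 intensities of 12.14, 12.60 and 11.42 in control and of 11.82, 12.58 and 11.73 in 1,25D cultures. Replicate 2 was highest and replicate 3 lowest in both groups. The pairs differed by -0.32, -0.017 and 0.31, which left a mean difference of -0.01 ± 0.33 (SE) and the widest 95% interval of the 10 genes, from 0.59-fold to 1.68-fold.

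Glul, glutamine synthetase, the astrocyte enzyme that joins ammonia to glutamate, had log2 intensities of 11.80, 11.74 and 12.28 in control and of 12.07, 12.04 and 12.19 in 1,25D cultures. The treated value was higher in pairs 1 and 2, by 0.27 and 0.30, and lower in pair 3, by a difference of -0.09. The mean level was 1.12-fold higher, with a 95% interval of 0.87 to 1.43 (limma, adjusted p = 1.00). A second Glul row gave 0.27, 0.16 and -0.20 in the 3 pairs, with the same signs.

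**Figure D2:**
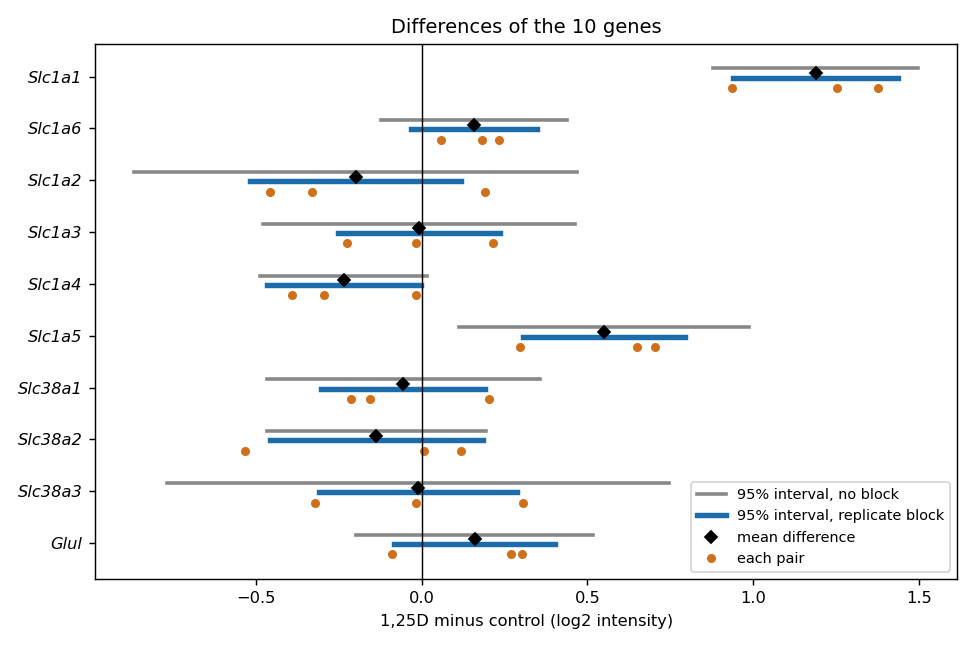
Difference between 1,25D and control in log2 intensity (horizontal axis) for each gene, with the mean as a diamond, the 3 pairs as points, and the 95% intervals of the limma fits without and with the replicate block as grey and blue bars. The interval of Slc1a1 runs from 0.88 to 1.50 without the block and that of Slc1a5 from 0.11 to 0.99, while the intervals of the other 8 genes without the block include 0.

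Counted together, 3 of the 10 genes (Slc1a1, Slc1a5 and Slc1a6) were higher in 1,25D in all 3 pairs, where 14.8% of all genes were, and 1 gene (Slc1a4) was lower in all 3, where 11.0% of all genes were; 25.8% of all genes had the same sign in all 3 pairs. The groups did not overlap for 2 of the 10 genes, where this held for 4.15% of all genes: 1 gene was higher, against 2.63% of all genes, and 1 lower, against 1.52%. Slc1a1 is among the 3 genes higher in all pairs and is the gene whose treated arrays all lay above the controls, and its difference was known beforehand. After quantile normalisation the genes without overlap were Slc1a1 and Slc1a5, both higher, and Slc1a4 was no longer among them. For the other 9 genes the 95% intervals without the block stayed within a 2-fold change, from 0.55-fold to 1.98-fold.

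Replicate number held most of the variation in 6 of the 10 genes. For each gene the sum of squares over the 6 arrays was divided into parts for treatment, replicate number and the remainder. Replicate number held 91.4% for Slc38a3, 87.5% for Slc1a3, 80.9% for Slc1a2, 80.5% for Slc38a1, 63.2% for Slc1a6 and 62.4% for Glul, against a median of 65.45% over all genes. Treatment held 94.5% for Slc1a1, 60.9% for Slc1a4 and 58.1% for Slc1a5, against a median of 7.28% over all genes. The share of treatment was larger than that of replicate number in these 3 of the 10 genes and in 12.5% of all genes, a comparison that includes the known Slc1a1 difference. Slc38a2 belonged to neither kind, with 67.7% in the remainder.

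The genes did not share a single replicate pattern. Slc1a3 and Slc38a3 were highest in replicate 2, with means over the 2 arrays of 12.85 and 12.59, and lowest in replicate 3, with 12.27 and 11.57. Glul was highest in replicate 3, at 12.24, and Slc1a2 was highest in replicate 1, at 10.11, and lowest in replicate 3, at 9.24. The 10 astrocyte markers, averaged on the log2 scale, stood at 10.87, 10.96 and 10.60 on the control arrays and at 10.67, 11.00 and 10.57 on the 1,25D arrays, also highest in replicate 2 and lowest in replicate 3. The part of astrocyte content in the replicate pattern of Slc1a3 and Slc38a3 was not tested.

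**Figure D3:**
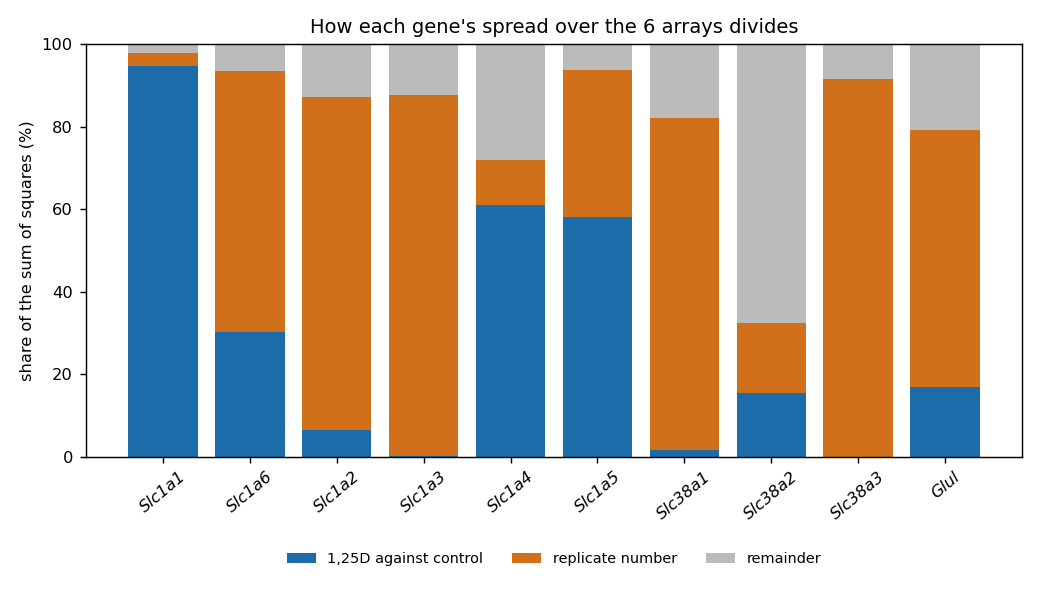
Share of each gene's sum of squares over the 6 arrays, in percent (vertical axis), that lies between 1,25D and control (blue), between replicate numbers (orange) and in the remainder (grey). Blue fills 94.5% of the Slc1a1 bar, while orange fills 91.4% of the Slc38a3 bar and 87.5% of the Slc1a3 bar.

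Markers of neurons, glia, and endothelial and meningeal cells were read beside these genes, although the sample titles name only neurons and glia. Gfap of astrocytes and Map2 of neurons had control means of 11.61 and 10.94. Map2 was the highest neuron marker, and the others had control means from 5.91 (Nefm) to 8.64 (Stmn2). The other astrocyte markers ran from 6.44 (Gjb6) to 13.08 (Aldoc). None of the 43 measured markers of astrocytes, neurons, oligodendrocyte lineage, microglia, and endothelial and meningeal cells passed in limma without or with the block. At an unadjusted p under 0.05 there were 2 of the 43 without and 6 with the block, against 1.48% and 5.78% of all genes. The 10 neuron markers had a median log2 difference of -0.06, and their mean log2 level ranged from 7.81 to 8.53 in control and from 7.65 to 8.53 in 1,25D cultures. Rbfox3, a nuclear protein of mature neurons, was at 7.76 ± 0.21 in control and 7.42 ± 0.15 in 1,25D, and Syn1, of synaptic vesicles, at 8.58 ± 0.17 and 8.41 ± 0.19 (SD, n = 3 each). Of the 10 neuron markers 3 had a higher and 7 a lower mean in 1,25D, 1 was higher and 3 were lower in all 3 pairs, and their part in the Slc1a1 difference was not tested.

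The 10 astrocyte markers had a median log2 difference of -0.07, and 2 had a higher and 8 a lower mean in 1,25D. Among them Aldh1l1, an enzyme of folate metabolism, had a difference of -0.27 ± 0.15 and Fgfr3, a growth factor receptor, of 0.18 ± 0.14 (SE). The medians were -0.04 for 7 oligodendrocyte lineage markers, 0.04 for 8 microglia markers and 0.08 for 8 endothelial and meningeal markers. In the oligodendrocyte lineage list 3 means were higher and 4 lower in 1,25D. In the microglia list 6 were higher and 2 lower, and the same held in the endothelial and meningeal list. In the last list Pdgfrb, a receptor of pericytes, and Col1a1, a fibrillar collagen, had differences of 0.48 ± 0.20 and 0.42 ± 0.18 (SE) and adjusted p-values of 1.00 in limma without the block and 0.23 and 0.67 with it. The summed linear intensity of that list was 2354 to 3353 in control and 2896 to 3434 in 1,25D cultures, and its part in the Slc1a1 difference was not tested. The smallest unadjusted p-values of the other lists belonged to Olig1 and Sox10, transcription factors of oligodendrocyte precursors, with differences of -0.28 ± 0.31 and 0.08 ± 0.10, and to Cx3cr1 and Aif1, of microglia, with 0.19 ± 0.09 and 0.12 ± 0.10 (SE).

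The rest of the glutamate pathway was read from 6 lists with 63 distinct genes, 55 of them measured, and 0 rose and 0 fell past the threshold in limma without or with the block. At an unadjusted p under 0.05 there were 0 of the 55 without and 7 with the block, against 1.48% and 5.78% of all genes. Among 12 measured enzymes that make or use glutamate and glutamine, 4 had a higher and 8 a lower mean in 1,25D, with a median of -0.02. Aldh4a1, which makes glutamate from proline breakdown, had a log2 difference of 0.26 ± 0.21 (SE, higher in 3 of 3 pairs), and Got2, the mitochondrial aspartate aminotransferase, of -0.10 ± 0.14 (SE).

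Among 20 other carriers, 12 had a higher and 8 a lower mean, and the median was 0.02. Slc7a11, which exports glutamate in exchange for cystine, had log2 intensities of 9.41, 8.38 and 8.32 in control and of 10.89, 8.95 and 8.35 in 1,25D cultures. The array of 1,25D replicate 1 stood far above the others, and the difference was 1.48, 0.57 and 0.03 in the 3 pairs (limma, adjusted p = 1.00 without and 0.81 with the block). Slc38a5, a glutamine transporter related to Slc38a3, had a difference of 0.12 ± 0.12 (SE).

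Of 7 proteins known to bind these transporters or carry them to the membrane, 4 were measured. Rtn2, which promotes Slc1a1 trafficking, had log2 intensities of 8.92, 8.90 and 9.04 in control and of 9.34, 9.12 and 9.11 in 1,25D cultures, all treated arrays above all controls. Ajuba, a partner of Slc1a2, had 9.97, 10.08 and 10.23 in control and 9.43, 9.90 and 9.96 in 1,25D cultures, all treated arrays below all controls. Groups without overlap were found for 4.15% of all genes, and for 2 higher and 1 lower of the 55 measured genes of the pathway lists. Neither Rtn2 nor Ajuba passed in limma (adjusted p = 1.00 for both without the block, 0.86 and 0.68 with it). Slc9a3r1, a scaffold protein that binds Slc1a3 and is named here after its values were seen, had the largest difference of the 4, 0.38 ± 0.20 (SE), with 0.36, 0.38 and 0.42 in the 3 pairs. It did not pass in limma either (adjusted p = 1.00 without and 0.33 with the block). Sodium pump subunits and the astrocyte potassium channel Kcnj10, which maintain the gradients that drive uptake, had differences between -0.16 and -0.03 in the 3 measured genes, Atp1b1 at -0.16 ± 0.12 and Atp1b2 at -0.06 ± 0.14 (SE).

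In the list of cysteine and glutathione genes, which draw on the cysteine that Slc1a1 carries, 3 had a higher and 3 a lower mean, with a median of 0.0066. Gss, glutathione synthetase, had a difference of 0.29 ± 0.22 and Gclm, a subunit of the enzyme that starts glutathione synthesis, of -0.14 ± 0.18 (SE). In the amino acid response list, genes that cells induce when amino acids are scarce, 11 of 14 had a higher mean and the median was 0.13. The list median was 0.45 in pair 1, 0.10 in pair 2 and -0.03 in pair 3, so most of it lay in pair 1. Ddit4, an inhibitor of growth signalling, and Trib3, a pseudokinase, each had a log2 difference of 0.32, with SE of 0.16 and 0.18. In pairs 1, 2 and 3 Trib3 differed by 0.74, 0.05 and 0.15, but Ddit4 by 0.08, 0.23 and 0.64, most in pair 3. The pair differences of Slc1a5 were 0.65, 0.70 and 0.30, and 0.68, 0.64 and 0.31 after quantile normalisation. They were lowest in pair 3, as in the list, but similar in pairs 1 and 2, where the list median fell from 0.45 to 0.10. Slc38a2, also a gene induced when amino acids run short, had differences of 0.0061, 0.12 and -0.53. The part of the amino acid response in the Slc1a5 difference was not tested.

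**Figure D4:**
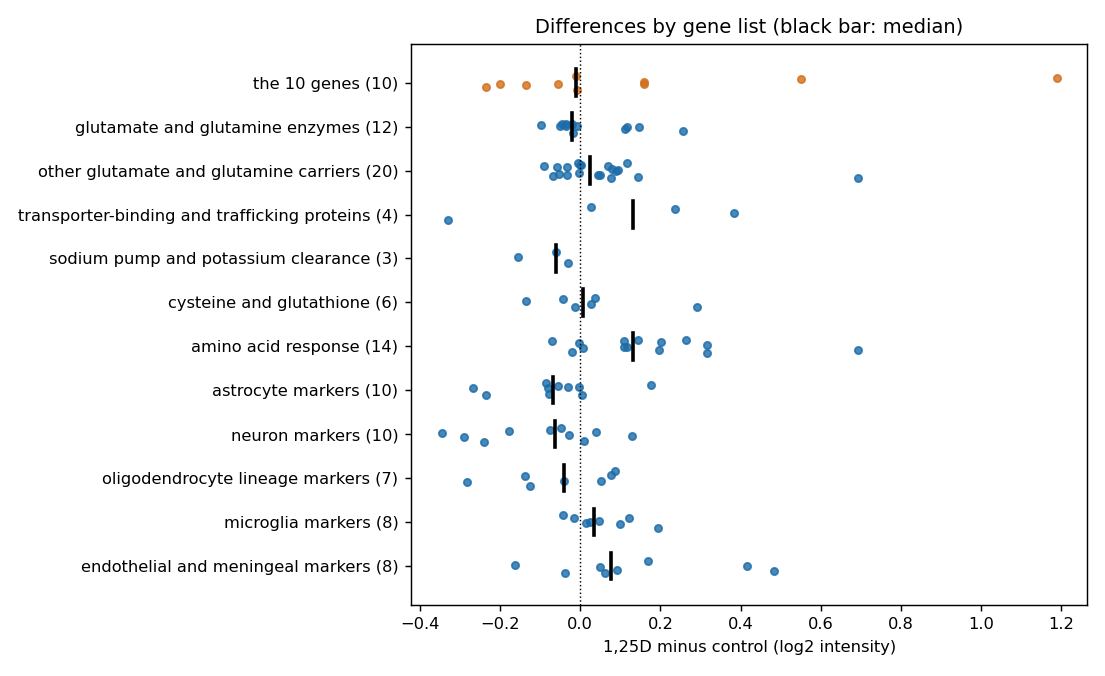
Difference between 1,25D and control in log2 intensity (horizontal axis) for every measured gene of the 10-gene set (orange) and of the pathway and marker lists (blue), with the number of genes in brackets and the list median as a black bar. List medians lie between -0.07 and 0.13, and Slc1a1 at 1.19 lies above every other point, followed by Slc7a11 at 0.69 and Slc1a5 at 0.55.

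The genes whose profile over the 6 arrays was most like that of Slc1a1 were Lratd1, Cbs, Prelp, Cacna2d2 and Fbln1, by the root mean square difference between log2 profiles centred on their own means. That distance was 0.16 for Lratd1 and for Cbs, 0.17 for Prelp and for Cacna2d2, and 0.18 for Fbln1. Each had a higher level in all 3 pairs, on average between 1.85-fold for Prelp, a matrix proteoglycan, and 2.20-fold for Lratd1, Cbs and the matrix protein Fbln1. Cbs, which makes cystathionine from homocysteine, differed by 1.31, 1.12 and 0.99 in pairs 1, 2 and 3, and Cacna2d2, a calcium channel subunit, by 0.99, 1.18 and 1.11. Fbln1 passed in limma without and with the block (adjusted p = 0.022 in both). Cbs and Cacna2d2 passed only with the block (limma, adjusted p = 0.024 for both), and Lratd1 and Prelp passed in neither fit. Likeness was measured over 6 arrays that include the compared groups, so genes with a higher level of similar size in 1,25D come first by construction.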

How the data were processed

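Per the submitters' processing notes, the authors ran RMA in Affymetrix Expression Console; tool versions, filters and genome build are not stated there. What the authors deposited is 1 linear intensity per transcript cluster and array, and log2 was taken here. RMA gives no detection call, and differences of dim genes are compressed. The number of arrays limits the precision.

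The table held 35556 rows, 21789 with 1 gene symbol, 1621 with several and 12146 with none in the platform annotation. Columns of other samples numbered 0. The lower quartile of genes lay between 6.69 and 6.86 (log2) on the 6 arrays, below every value of the 10 genes. By mean intensity over the 6 arrays, Slc1a5, Slc1a6 and Slc1a1 stood only at percentiles 43.7, 45.1 and 58.0 of all genes. Without a detection call, the expression of such genes is not shown by their level. Of all genes, 1094 had identical values on both replicate 1 arrays, 0 of them among the 10. The same check was not made for the other pairs. Among the list genes, Arhgef11, Stmn2 and Cdh5 had a difference of 0.0 in pair 1.

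Differences (1,25D minus control) came from lmFit and eBayes of limma 3.58.1 under R 4.3.3, with p adjusted over all genes. The code was tested on simulated data. Equal numbers were checked for pairing: deviations from group means correlated at 0.51, 0.65 and 0.46 for equal numbers. For unequal numbers the correlations ran from -0.51 to -0.01. Deviations within a group cancel out, so these values are not independent. Every value for equal numbers was positive and every value for unequal numbers negative. The blocked fit therefore stands beside the other, as a hint from the data. Exact permutation tests used scipy 1.17.1.

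The members and lists were chosen with earlier results of these data known. From each list up to 3 called genes were named, or else the 2 with the smallest unadjusted p, and the 5 genes most like Slc1a1. List genes without a row of a single symbol (9) are not analysed here. Alternatives covered normalisation, filter, rows, variance model, block and arrays left out.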

Additional observations from a re-analysis of the deposited data

How the results depend on the processing

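Slc1a1, Slc1a4, Slc1a5, Slc1a6 and Glul kept the direction of their mean difference in all 24 alternatives each, and Slc1a1 passed in 7 of them, all with the block, with adjusted p-values (limma) between 0.004 and 0.49 over the 24. The number of the 10 genes called, 0 without the block, was 1 with the replicate block and stayed 1 with the block and median centring, without the lowest 25% of genes, with an intensity trend or with array weights. It was 0 with any array left out of the fit without the block, and 0 to 1 with a pair left out of the blocked fit. Over all genes, 5 were called without the block, 3 after quantile normalisation and 0 over all rows of the table (limma, 521 rows at an unadjusted p under 0.05, and 1 called with the block). With the replicate block the count over all genes was 18, 10 with quantile normalisation, 16 with median centring, 18 without the lowest 25% of genes, 18 with an intensity trend and 40 with array weights. In the fit without the block and with an array left out, the count over all genes ran from 0 to 2. It was 0 in limma without control replicate 3 or 1,25D replicate 3, with 567 and 494 genes at an unadjusted p under 0.05. With a pair left out of the blocked fit it ran from 3 to 45.

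After quantile normalisation, without and with the block, the mean difference turned to 0.014 for Slc1a3 and 0.0085 for Slc38a3. With an array left out, the difference of Glul, 0.16 over all arrays, ran from 0.059 to 0.33 and that of Slc1a6, also 0.16, from 0.077 to 0.23. It ran from -0.39 to 0.078 for Slc1a2, from -0.19 to 0.15 for Slc1a3, from -0.23 to 0.099 for Slc38a1, from -0.24 to 0.0068 for Slc38a2 and from -0.33 to 0.26 for Slc38a3. In the blocked fit it was 0.10 for Slc1a3, 0.024 for Slc38a1 and 0.14 for Slc38a3 without replicate 1, and 0.062 for Slc38a2 without replicate 3. None of these 5 genes passed in any alternative. The cause was not tested. Slc1a5 passed in none, with adjusted p-values (limma) between 0.063 and 1.00. The 3 genes higher in every pair stayed 3 in each scaling. The genes without overlap numbered 2 (Slc1a1 higher, Slc1a4 lower), 2 after quantile normalisation (Slc1a1 and Slc1a5, both higher) and 3 after median centring (all of these).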
